A study of Homo sapiens with 8 samples.

Results

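The genes described here are the death-promoting side of the BCL2 family: the effectors BAX, BAK1 and BOK, and the BH3-only genes BCL2L11 (BIM), BBC3 (PUMA), PMAIP1 (NOXA), BAD, BID, BIK and BMF. They were chosen by name, 10 of the 58440 genes of the count table, and all 10 passed the filter on low counts that left 17144 genes for testing. The study used HEK293, a human embryonic kidney cell line, in a control form and in a form that stably overexpresses HTR1E, a serotonin receptor that couples to inhibitory G proteins. Cells of each form were serum-starved for 3 h and were then left without ligand or given serotonin at 1 µM for 1 h, which gave 8 polyadenylated RNA libraries, 2 of each form and treatment. The labels do not give the promoter that drives HTR1E, whether the stable line is 1 clone, or whether the libraries of a group came from separate cultures. P-values here therefore measure only the spread between these libraries, which may be technical.

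Cells die by the mitochondrial route when BAX or BAK1 proteins assemble into pores in the outer mitochondrial membrane and let cytochrome c out. Survival proteins such as BCL2 and MCL1 hold the effectors in check. BH3-only proteins carry a single short helix with which they occupy the survival proteins or activate the effectors, and several of them are controlled mainly by transcription, while others, such as BAD and BID, are known mostly for control by phosphorylation or cleavage. Messenger RNA levels do not report those later steps.

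The names of the table's columns give the treatment and then the letter A or B, alone or with a suffix. They do not say which letter stands for which form of the line, and libraries were not assigned to a form by their counts, so the libraries are called set A and set B, with 4 libraries in each. Within a set and treatment, library 1 is the column with the letter alone (A1, B1) and library 2 the one with the suffix (A2, B2). Levels in CPM are counts scaled to library totals that were first multiplied by a factor from TMM, a between-library scaling. These factors ran from 0.669 in the no-ligand library B1 to 1.153 in the no-ligand library A1, and the serotonin library B2 had 0.797. CPM therefore differ from counts scaled by library size alone, most in the no-ligand library B1. HTR1E was at 175 and 181 CPM without ligand and at 221 and 226 CPM with serotonin in set A. In set B it was at 0 and 0 without ligand and at 0.244 and 0.503 with serotonin. Library totals ranged from 2604885 to 9072278 counts, and the no-ligand library B1 was the smallest. Counts from the mitochondrial chromosome took 17.9% to 24.6% of each library in set A, and 54.4%, 18.9%, 24.6% and 36.3% in the no-ligand libraries B1 and B2 and the serotonin libraries B1 and B2 of set B. The no-ligand library B1 and the serotonin library B2 stood apart by this measure, and some of the differences below, not all, are given with and without them. All 6 genes of a list of HEK293 markers were detected in all 8 libraries, with NEFM lower in set B by edgeR over both treatments (log2 difference -2.16, adjusted p = 0.00723) and PAX2 higher (1.67, adjusted p = 0.0284). The NEFM call was lost without the no-ligand library A2 (adjusted p = 0.0618) and stood at -2.18 without the no-ligand library B1 and the serotonin library B2. PAX2 was at 1.07 without the serotonin library B2, where its call was lost, and at 1.11 without that library and the no-ligand library B1. Its call was also lost without any 1 library of set A and with scaling by library size alone (adjusted p = 0.055). Of 10 marker genes of blood, liver, fibroblast and endothelial cells, PTPRC and HBB were at 0 throughout, and the list's summed level was 28.2 to 34.7 CPM in set A and 14.4 to 48.3 CPM in set B. Most of that sum was COL1A1, at 26.1 to 31.6 CPM in set A and 12.1 to 43.9 CPM in set B. By edgeR COL1A1 was lower in set B without ligand (log2 difference -1.30, adjusted p = 0.0487) and was not called with serotonin (0.42, adjusted p = 0.385).

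Per unit of gene length, BAX and PMAIP1 messages were the most abundant of the 10 and BOK the least. In TPM, a level scaled to the library and corrected for gene length, the medians over the 8 libraries were 222 for BAX, 175 for PMAIP1, 42.2 for BAD, 38.1 for BAK1, 34.8 for BBC3, 19.7 for BCL2L11, 15.4 for BMF, 13.6 for BIK, 6.42 for BID and 2.92 for BOK. The order was firm at some steps and loose at others. PMAIP1 was above BAD in 8 of 8 libraries, whereas BMF was above BIK in 5 of 8 and BAD above BAK1 in 6 of 8. BAX was above PMAIP1 in 7 of 8, the exception being the no-ligand library B1 (33.4 against 42.0 TPM).

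**Figure D1:**
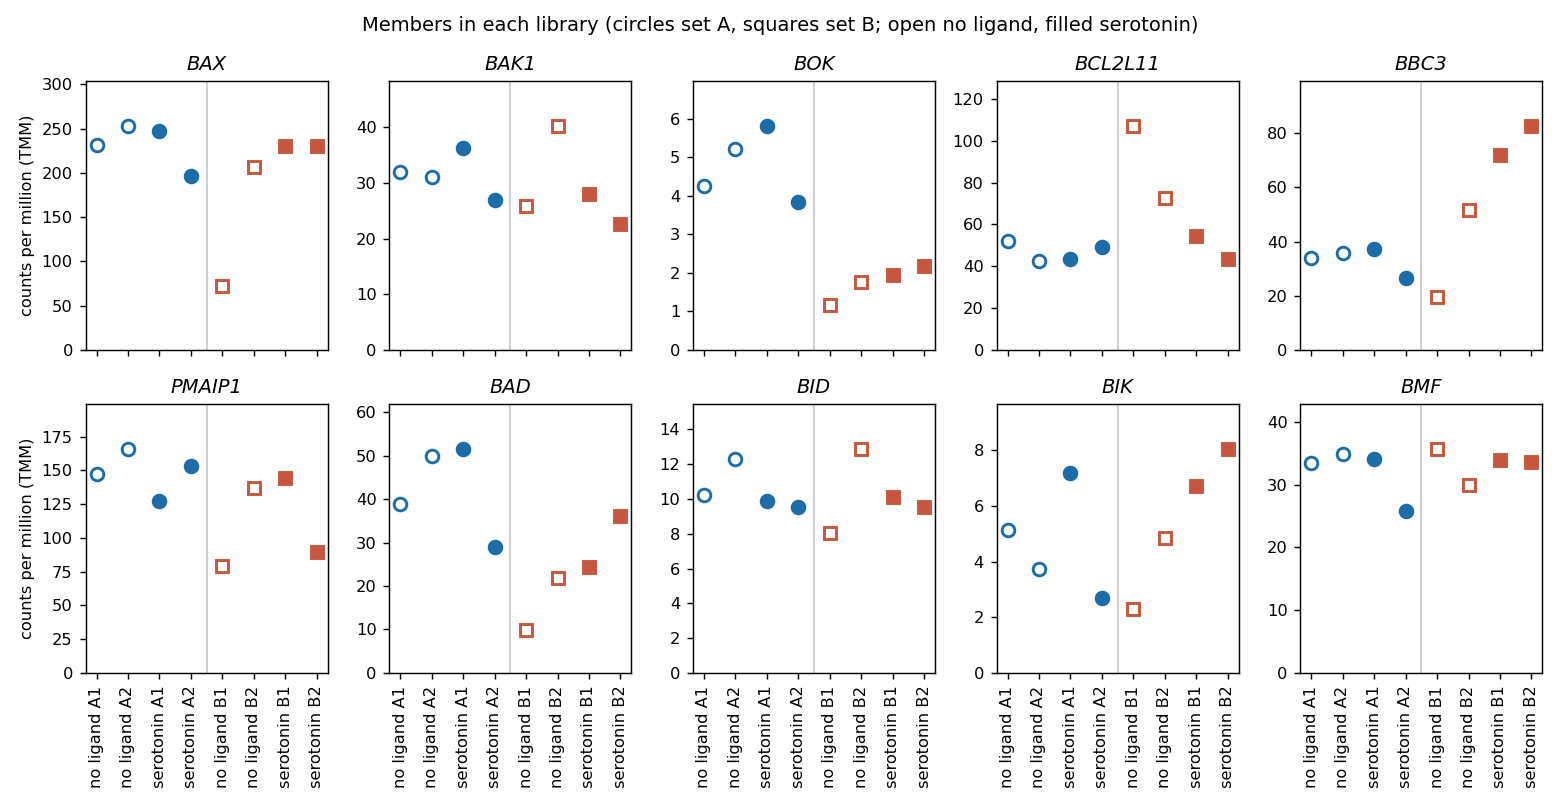
Level of each of the 10 genes (vertical axis, CPM, starting at 0) in each of the 8 libraries (horizontal axis). Circles are set A, squares set B, open symbols no ligand and filled symbols serotonin. BOK is lower in all 4 libraries of set B than in any of set A, and BBC3 is highest in the serotonin libraries of set B. Of all tested genes, 17.6% do not overlap between the sets.

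BAX, the effector that moves from the cytosol to mitochondria, is encoded on chromosome 19 (hg38, chr19:48954815-48961798, plus strand). Its level was 231 and 253 CPM without ligand and 247 and 197 CPM with serotonin in set A. In set B it was 72.6 and 207 CPM without ligand and 230.2 and 230.3 CPM with serotonin. The low value came from the no-ligand library B1, and the other 7 libraries lay between 197 and 253 CPM. BAK1, the effector that resides in the mitochondrial membrane (chr6:33572547-33580293, minus strand), was at 31.9, 31.0, 36.3 and 26.9 CPM in set A and at 25.9, 40.3, 27.97 and 22.6 CPM in set B, in the order no ligand 1, no ligand 2, serotonin 1, serotonin 2. The sets overlapped for both effectors.

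BOK, a related effector found largely at the endoplasmic reticulum, is encoded on chromosome 2 (chr2:241551424-241574138, plus strand) and was the exception among the effectors. Set A libraries had 4.27, 5.22, 5.82 and 3.84 CPM, from 40, 53, 47 and 23 counts in the same order. Set B libraries had 1.15, 1.76, 1.95 and 2.18 CPM, from 2, 16, 16 and 13 counts. Every library of set B was below every library of set A, at counts low enough that single libraries are imprecise. Of all tested genes, 17.6% did not overlap between the sets, in either direction. As a share of the counts of the 10 genes, which does not depend on how libraries are scaled to each other, BOK took 0.735% to 0.971% in serotonin libraries and 0.726% and 0.823% in no-ligand libraries of set A, against 0.304% to 0.39% in set B. In the no-ligand library B2 the share was 0.304% with a 95% Wilson interval of 0.187% to 0.493%, and in the no-ligand library A2 it was 0.823% with an interval of 0.629% to 1.07%. In the no-ligand library B1 the interval was 0.0875% to 1.16%, which spans every value of set A. In the serotonin library B2 it was 0.228% to 0.666%, which overlaps that of the no-ligand library A1 (0.533% to 0.987%). These intervals cover counting error only.

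BBC3 encodes PUMA, a BH3-only protein that binds all the main survival proteins (chr19:47220822-47232766, minus strand). A microRNA gene on the same strand, MIR3191, shares 2.39% of its exonic bases. In set A BBC3 was at 33.7 and 35.7 CPM without ligand and at 37.4 and 26.4 CPM with serotonin. In set B it was at 19.6 and 51.5 CPM without ligand and at 71.9 and 82.8 CPM with serotonin. The serotonin libraries of set B were the highest of the 8 and the no-ligand library B1 the lowest. Its share of the 10 genes' counts was 5.05% to 6.24% in set A, 5.42% and 8.9% in the no-ligand libraries of set B, and 11.9% (95% Wilson interval 11% to 12.8%) and 14.8% (13.7% to 16.1%) in its serotonin libraries.

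BCL2L11 encodes BIM, a BH3-only protein known as an activator of BAX and BAK1 (chr2:111119378-111168447, plus strand). It was at 52.0 and 42.6 CPM without ligand and at 43.2 and 49.0 CPM with serotonin in set A, and at 107 and 72.4 CPM without ligand and 54.5 and 43.4 CPM with serotonin in set B. The no-ligand libraries of set B were the highest pair. BAD, the BH3-only protein that survival signalling holds in check by phosphorylation (chr11:64269830-64284704, minus strand), was lowest in those same no-ligand libraries of set B. It was at 38.9 and 49.8 CPM without ligand and 51.5 and 29.1 CPM with serotonin in set A, and at 9.79 and 21.8 CPM without ligand and 24.4 and 36.2 CPM with serotonin in set B.

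PMAIP1, whose protein NOXA binds MCL1, was at 147, 166, 127 and 153 CPM in set A and 78.9, 137, 145 and 89.5 CPM in set B. Its lowest values were in the 2 libraries with the highest mitochondrial shares. BID, which caspase-8 cleaves to link death receptors to mitochondria, stayed between 8.06 and 12.9 CPM over the 8 libraries. BIK, a BH3-only protein of the endoplasmic reticulum, ranged from 2.30 CPM in the no-ligand library B1 to 8.04 CPM in the serotonin library B2, and its log2 fold change after serotonin in set B was 0.88 ± 0.53 (SE, n = 2 against 2, edgeR adjusted p = 0.305). BMF, known for its tie to the cytoskeleton, lay between 25.9 and 35.7 CPM.

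**Figure D2:**
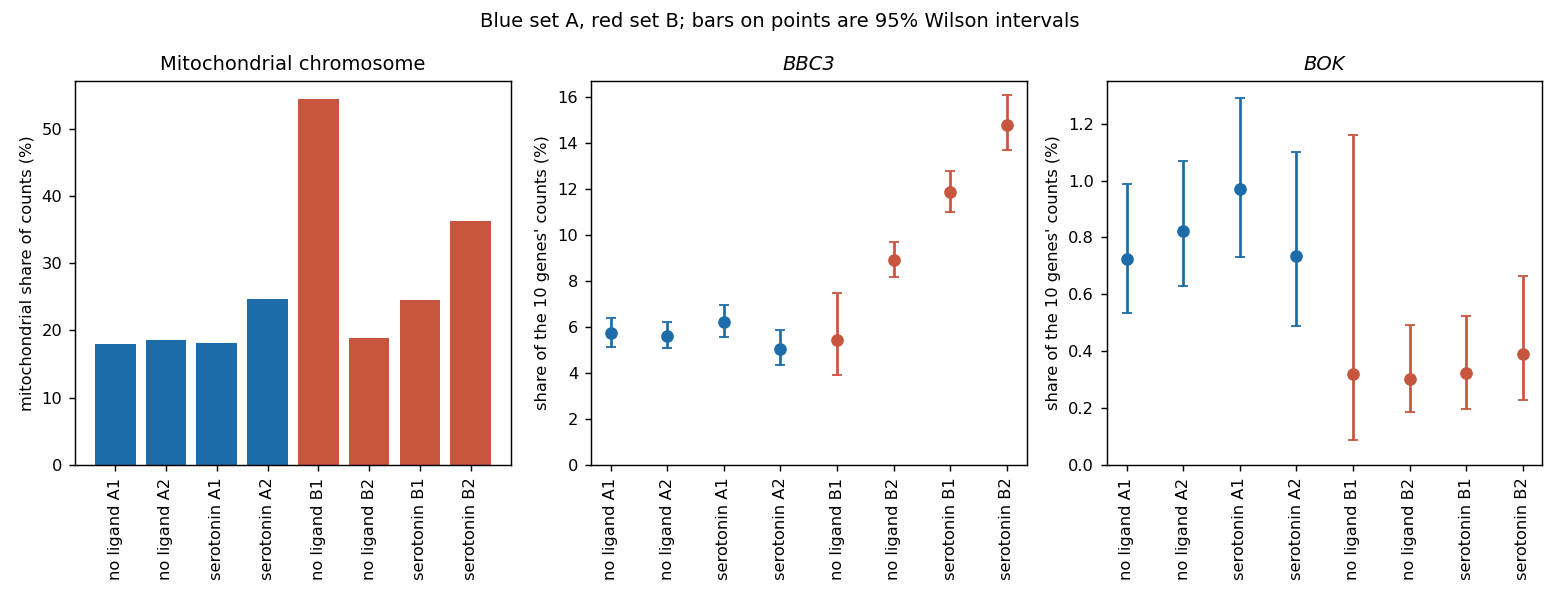
Percent of counts from the mitochondrial chromosome (left, bars from 0), and percent of the 10 genes' counts taken by BBC3 (middle) and BOK (right), for each library. Points carry 95% Wilson intervals. The mitochondrial share reaches 54.4% in the no-ligand library B1, the BBC3 share 14.8% in the serotonin library B2, and the BOK share is at or below 0.39% in set B.

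The stretches just before the start sites of the genes whose values differed most, BBC3, BOK and BAD, and of BAX, the most abundant, are shown so that their sequence can be set beside those values. They come from RefSeq (GRCh38.p14), which gave a promoter for 9 of the 10 genes, and run 5′ to 3′ on the gene's strand. Bases that the count table's annotation holds as exon were trimmed off. The RefSeq start site of BOK lies inside the gene as the count table draws it, so its stretch is intronic there. Capitals mark matches, on either strand, to the E-box CACGTG, the AP-1 site TGACTCA, the GC box GGGCGG and TGACG, the core of the cyclic-AMP response element TGACGTCA.
BBC3 (chr19:47232767-47232917, minus strand): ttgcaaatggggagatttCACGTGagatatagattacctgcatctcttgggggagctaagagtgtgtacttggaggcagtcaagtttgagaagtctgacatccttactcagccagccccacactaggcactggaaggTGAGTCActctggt
BOK (chr2:241558495-241558720, plus strand): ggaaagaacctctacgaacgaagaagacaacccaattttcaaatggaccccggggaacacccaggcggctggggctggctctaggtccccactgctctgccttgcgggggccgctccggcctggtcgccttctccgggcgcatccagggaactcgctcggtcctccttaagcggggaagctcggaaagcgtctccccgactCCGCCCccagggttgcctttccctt
BAD (chr11:64284705-64284954, minus strand): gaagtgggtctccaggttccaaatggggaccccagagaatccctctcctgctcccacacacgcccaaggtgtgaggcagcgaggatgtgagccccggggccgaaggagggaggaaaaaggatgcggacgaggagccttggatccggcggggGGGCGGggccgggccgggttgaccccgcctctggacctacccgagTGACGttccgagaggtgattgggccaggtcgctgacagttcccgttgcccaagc
BAX (chr19:48954625-48954814, plus strand): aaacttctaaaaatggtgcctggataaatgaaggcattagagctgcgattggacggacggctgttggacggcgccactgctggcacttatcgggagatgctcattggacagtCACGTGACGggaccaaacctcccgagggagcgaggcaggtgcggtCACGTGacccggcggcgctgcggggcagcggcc
In the BBC3 stretch the capitals are an E-box and, nearer the start site, an AP-1 site. BOK and BAD each show 1 GC box, and BAD also a TGACG. In the BAX stretch an E-box and a TGACG overlap, and a separate E-box follows. Over the whole 250-base windows of the 9 promoters, 7 held a GC box, against 42.6% of 35116 RefSeq promoters. TGACG was in 4 of 9, against 21.2%. The E-box was in 2 (BAX and BBC3), against 6.34%, and the AP-1 site in 1 (BBC3), against 4.2%. The full TGACGTCA, which contains TGACG, was in 0 of 9, against 1.65%. These matches are descriptions of letters, and binding was not measured.

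The first comparison asked whether 1 h of serotonin changed these messages. By edgeR's quasi-likelihood test with Benjamini-Hochberg adjustment, 0 of the 10 genes passed an adjusted p of 0.05 over both sets, where 0.00583% of all tested genes did. It was also 0 of 10 in set A, against 0% of all genes, and 0 of 10 in set B, against 0.0117%. At an unadjusted p below 0.05 there were 1, 0 and 2 of the 10 genes, beside 11.1%, 0.362% and 26.5% of all genes, and DESeq2 called 0 of the 10 in each of the 3 comparisons, where it called 0.0337%, 0% and 4.05% of all genes. The median log2 fold change of the 10 genes was 0.09 over both sets, -0.12 in set A and 0.24 in set B, against 0.00, -0.02 and 0.01 for all genes. Serotonin and no-ligand libraries did not overlap for 0 of 10 genes over both sets, against 2.18% of all genes, for 1 of 10 in set A (BID), against 27%, and for 6 of 10 in set B, against 54%.

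In set A, whose libraries carried HTR1E at 175 to 226 CPM, the 10 fold changes after serotonin lay between -0.21 and 0.18 on the log2 scale. The 95% interval for BAX ran from -1.04 to 0.79 and that for BBC3 from -0.94 to 0.70, so changes of moderate size were not detectable with 2 libraries a group. In set B, BBC3 had a log2 fold change of 1.06 ± 0.38 (SE, n = 2 against 2, adjusted p = 0.12) and BCL2L11 one of -0.86 ± 0.29 (adjusted p = 0.106). For BBC3 the value was 0.47 without the no-ligand library B1 and the serotonin library B2. It was 0.58 without the no-ligand library B1 alone, and 2.01 without the no-ligand library B2. For BCL2L11 the value without the no-ligand library B1 and the serotonin library B2 was -0.42, and without the no-ligand library B2 it was -1.10. These fits left 1 library in a group, so only the sizes are given. The test of whether the response differed between the sets called 0 of 10 genes, against 0% of all genes, 1 of 10 and 15% of all genes having an unadjusted p below 0.05. DESeq2 called 0 of the 10 there, against 0.197% of the 35617 genes with any count. For BBC3 that difference was 1.18 ± 0.53 on the log2 scale (adjusted p = 0.333). It was 0.68 without the no-ligand library B1 and 2.14 without the no-ligand library B2.

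**Figure D3:**
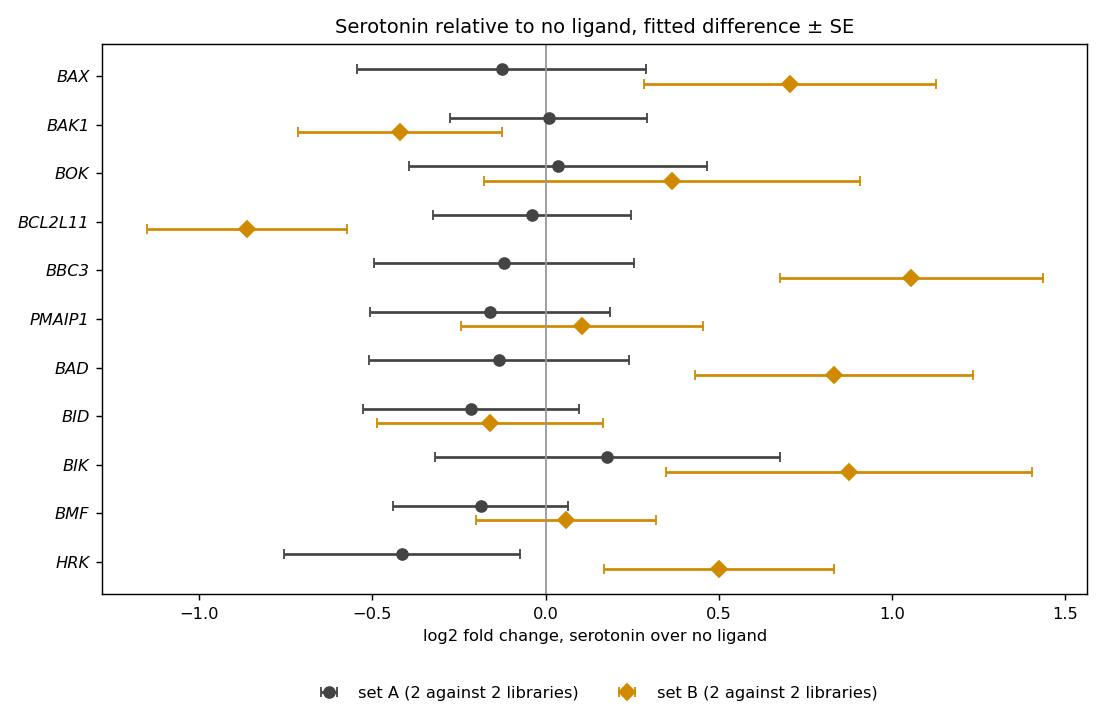
Fitted log2 fold change of serotonin over no ligand (horizontal axis) for each of the 10 genes and HRK, in set A (circles) and set B (diamonds). Bars are standard errors. Set A values for the 10 genes lie between -0.21 and 0.18, and in set B BBC3 is at 1.06 and BCL2L11 at -0.86, with no adjusted p of the 10 below 0.05.

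The sets were then compared within each treatment. Without ligand 0 of the 10 genes passed the threshold, where 2.42% of all genes did, and with serotonin again 0 of 10, where 5.25% did. At an unadjusted p below 0.05 there were 3 and 2 of the 10, beside 19.2% and 24.3% of all genes. The 2 libraries of each set did not overlap without ligand for 5 of the 10 genes, against 54.3% of all genes, nor with serotonin for 2 of 10, against 58.9%. DESeq2 called 1 of the 10 in each, BAD without ligand (adjusted p = 0.0384) and BBC3 with serotonin (adjusted p = 0.0231). There it called 2.13% and 4% of the 35617 genes with any count, a wider base than that of the edgeR shares. The 10 genes' median log2 difference, set B over set A, was -0.11 without ligand and 0.04 with serotonin, against -0.03 and -0.02 for all genes.

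Without ligand the genes with an unadjusted p below 0.05 were BOK, BAD and BCL2L11. The log2 difference of set B from set A was -1.56 ± 0.51 for BOK (SE, n = 2 against 2, adjusted p = 0.139), -1.39 ± 0.40 for BAD (adjusted p = 0.0985) and 0.91 ± 0.29 for BCL2L11 (adjusted p = 0.129). Leaving out the no-ligand library B2 brought BAD to -2.22 and BCL2L11 to 1.14, with the no-ligand library B1 then alone in its group. Leaving out both libraries that stood apart gave BAD a value of -1.01. With serotonin BOK was at -1.23 ± 0.47 (adjusted p = 0.136) and BBC3 at 1.27 ± 0.38 (adjusted p = 0.0732), while BAD was at -0.42 (adjusted p = 0.53) and BCL2L11 at 0.09 (adjusted p = 0.878). Without the no-ligand library B1, BBC3 was at 1.30, without the no-ligand library B2 at 1.27, and without both libraries that stood apart at 1.17. These fits left 1 library in a group, so only the sizes are given.

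**Figure D4:**
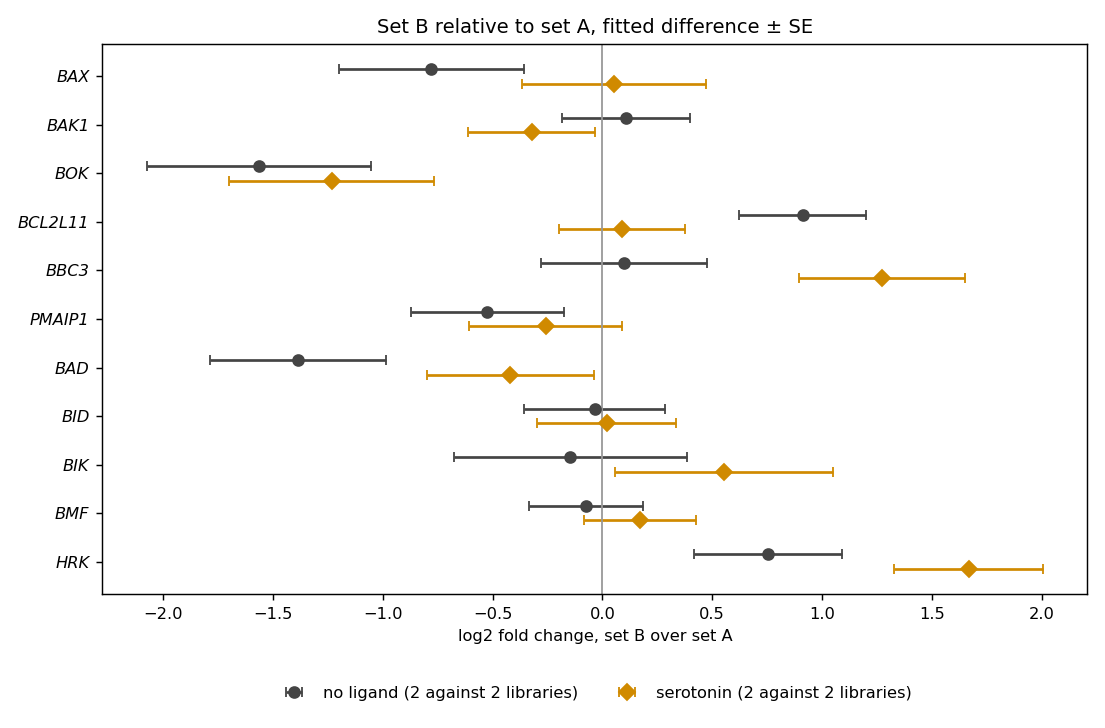
Fitted log2 difference of set B over set A (horizontal axis) for the 10 genes and HRK, without ligand (circles) and with serotonin (diamonds). Bars are standard errors. BOK is at -1.56 and -1.23, neither past the threshold, BBC3 stands at 0.10 without ligand and 1.27 with serotonin, and HRK is at 1.67 with serotonin.

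Averaged over both treatments, a comparison added after the values above were seen, BOK was lower in set B. Its log2 difference was -1.40 ± 0.35 (SE, n = 4 against 4, adjusted p = 0.0284), a 2.64-fold lower level. It was the 1 member of 10 past the threshold, where 9.36% of all genes passed it, 5.27% of all genes as lower. At an unadjusted p below 0.05 there were 4 of 10, against 25.5% of all genes. With 1 of 10 genes, this share is near the background. Leaving out the no-ligand library A1, A2 or the serotonin library A1, A2, B1 or B2 each ended the BOK call, with adjusted p-values of 0.0522 to 0.151, and DESeq2 gave -1.40 with an adjusted p of 0.0542. Without both libraries that stood apart BOK was at -1.36. That fit left 1 library in each group of set B, so only sizes are given from it. In the same comparison BAD was at -0.90 ± 0.28 (adjusted p = 0.0645), BBC3 at 0.69 ± 0.27 (adjusted p = 0.135) and BCL2L11 at 0.50 ± 0.20 (adjusted p = 0.152). Leaving out the no-ligand library B2 gave BAD -1.32, BCL2L11 0.61 and BBC3 0.20. Leaving out the no-ligand library B1 gave BAD -0.69 and BBC3 0.95. Both fits left 1 library in a group, so only the sizes are given. Without both libraries that stood apart, BAD was at -0.87 and BBC3 at 0.88, again with 1 library in each group of set B. Of the 10 genes, 1 did not overlap between the sets over the 8 libraries, against 17.6% of all genes.

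HRK, a BH3-only gene outside the 10 that is known from neurons, passed the threshold between the sets with serotonin and over both treatments, and not without ligand (log2 difference 0.75 ± 0.34, adjusted p = 0.253). It was at 6.73 and 8.07 CPM without ligand and 6.81 and 4.18 CPM with serotonin in set A, and at 10.4 and 13.9 CPM without ligand and 17.6 and 17.8 CPM with serotonin in set B. HRK was higher in all 4 libraries of set B than in any of set A, where 17.6% of all tested genes did not overlap between the sets. The log2 difference with serotonin was 1.67 ± 0.34 (SE, n = 2 against 2, adjusted p = 0.0211), and over both treatments 1.21 ± 0.24 (adjusted p = 0.0102). The serotonin difference was no longer called when the no-ligand library A1 or A2, or the serotonin library A1, A2 or B2, was left out, with adjusted p-values from 0.0538 to 0.243. Over both treatments that happened without the no-ligand library A1 or A2 or the serotonin library A2, with adjusted p-values of 0.0562 to 0.08. With scaling by library size alone the values were 1.38 (adjusted p = 0.131) and 0.91 (adjusted p = 0.102), a scaling that also moved the median of all genes to -0.30 and -0.31.

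Of 31 genes that act around the 10, 29 were tested, and 1 was called between the sets without ligand, 2 with serotonin and 3 over both treatments, beside 2.42%, 5.25% and 9.36% of all genes. The survival list (BCL2, BCL2L1, BCL2L2, MCL1, BCL2A1, BCL2L10) had 4 of 6 genes tested and 0 called in any comparison. Of 8 apoptosome and caspase genes, CYCS, which encodes cytochrome c, was higher in set B over both treatments (log2 difference 0.96 ± 0.24, adjusted p = 0.0287) and the other 7 were not called. Of 9 genes for proteins released from mitochondria or inhibiting caspases, 0 were called. Of 8 transcription factors known to act on members of the family, MYC was higher in set B without ligand (2.36 ± 0.31, adjusted p = 0.00356) and with serotonin (1.38 ± 0.30, adjusted p = 0.0286). JUN was higher with serotonin (1.10 ± 0.28, adjusted p = 0.0452). Over both treatments MYC was at 1.87 (adjusted p = 0.000493) and JUN at 0.74 (adjusted p = 0.0362). The other 6 factors were not called in any comparison. The calls of CYCS and JUN were lost without the no-ligand library A1 or A2 or any 1 of the serotonin libraries A1, A2, B1 and B2, with adjusted p-values from 0.0521 to 0.161 for CYCS and from 0.0555 to 0.415 for JUN, and with scaling by library size alone (0.264 for CYCS, 0.348 and 0.449 for JUN). Without the filter on low counts JUN was at adjusted p-values of 0.0539 and 0.0866. The MYC call with serotonin was lost without the same 6 libraries (0.0593 to 0.311), and that without ligand in the absence of the no-ligand library A1 (0.0584) or A2 (0.0833).

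By the root mean square difference of centred log2 CPM over the 8 libraries, the list genes most like BBC3 were ATF4 (0.253) and HTRA2 (0.258). For BCL2L11 they were FOXO1 (0.123) and CASP2 (0.169), for BAD E2F1 (0.289) and ENDOG (0.437), and for BOK E2F1 (0.389) and BCL2L1 (0.506). The 8 libraries also differed in depth and mitochondrial share, so these are descriptions. HSPA1A, a heat shock gene used as a stress marker, was higher in set B by 3.57 ± 0.41 on the log2 scale without ligand (adjusted p = 0.00163) and by 4.11 ± 0.42 with serotonin (adjusted p = 0.000649). HSPA1A has a near-identical copy, HSPA1B, so its counts are uncertain. The part of the stress marker, the mitochondrial share and the depth in the differences of BOK, BAD, BBC3, BCL2L11 and HRK was not tested.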

How the data were processed

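Strand-specific polyadenylated RNA libraries (TruSeq, per the labels) were sequenced from 8 samples. The deposited table holds raw counts per gene that the authors made with featureCounts (Subread 2.0.1, paired, reverse-stranded, GENCODE 28, hg38), per the file headers. Those headers name duplicate-marked alignments, and duplicates were not left out of the counts. The submitters' processing notes also name cutadapt 3.4, FastQC 0.11.9, STAR 2.7.8a, Bowtie2 and SAMtools 1.12. Gene length, another column the authors deposited, served for TPM.

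Genes were filtered with filterByExpr over 4 cells of 2 libraries (set and treatment), scaled by TMM and tested with edgeR 4.0.16 in R 4.3.3 (glmQLFit, glmQLFTest) in 1 fit with 4 residual degrees of freedom. P-values were adjusted over 17144 genes by the Benjamini-Hochberg method, with a threshold of 0.05, all tests being two-sided. Standard errors are the log2 fold change divided by the root of F. The script was tested on simulated data. Alternatives were DESeq2 1.42.0, relative log expression (RLE) scaling, library size alone, no filter, and a filter of 1 CPM. The filter of 1 CPM kept 17149 genes, so it was not stricter in number than the main filter. Further alternatives were a block by the rest of the column name and leaving out each library. Columns were placed by treatment and first letter of their names, never by values. Gene symbols matched 71.7% of the IDs. Libraries of 1 pair differed by more than counting noise (chi-square per degree of freedom 4.20 to 154).

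The members, the gene lists and the tests were chosen with earlier results of these data known. All 10 members and HRK are named by rule, with up to 5 called genes of each list and the 2 list genes most like each member that a result turns on (BOK, BBC3, BAD and BCL2L11). 1 gene of the transcription factor list is not reported here. Chosen after the values were seen were the comparison of sets over both treatments, the fits without both the no-ligand library B1 and the serotonin library B2, the motifs and the promoters printed.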

Additional observations from a re-analysis of the deposited data

Results flagged for a closer look

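Of 24 groups of 4 libraries examined (the total count and the CPM of the 10 genes and HRK, in each treatment), 2 held a library far from the other 3. Chance alone gives about 1.2 such groups in 24 if the 4 libraries of a group are alike. Each group pooled both sets, so the 1.2 is only a rough guide. The no-ligand library B1 had a total of 2604885 counts, and the nearest of the other no-ligand libraries had 8153715. Its 10 genes together had 627 counts. BMF was at 25.9 CPM in the serotonin library A2, below the nearest serotonin library at 33.67 CPM. The fitted serotonin response of BMF in set A, which includes that library, was -0.19 on the log2 scale (edgeR, adjusted p = 1).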

How the results depend on the processing

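The number of genes called depended strongly on the setting. In this paragraph the comparisons come in the order serotonin over both sets, serotonin in set A, serotonin in set B, difference of responses, set B against set A without ligand, with serotonin, and over both treatments (the last added after seeing the data). Leaving out 1 library at a time gave 0 to 1650, 0 to 0, 0 to 4846, 0 to 3482, 60 to 3693, 83 to 3347 and 514 to 3520 genes called, and 0 to 2, 0 to 0, 0 to 4, 0 to 3, 0 to 4, 0 to 1 and 0 to 5 of the 10 members. An arm left with 1 library is assumed to vary like the other groups. RLE scaling gave 1, 0, 2, 0, 414, 897 and 1640 genes, and 1 member, BOK over both treatments. Scaling by library size alone called 0 genes over both sets, 0 in set B and 340 between the sets with serotonin. DESeq2 called 12, 1443, 70, 759 and 1426 genes over both sets, in set B, for the difference, and between sets without ligand and with serotonin, with 1 member in each of the last 2. Without the filter these numbers were 227, 1830, 570, 1117 and 1985, with 1 member in set B, 1 in each comparison of sets and 2 over both treatments. Column names that share a letter ending do not show pairing (the deviations correlated at 0.004 in set A and 0.146 in set B). A replicate block by that ending called 27, 2218 and 250 genes over both sets, in set B and for the difference, and 1 member in set B, BBC3 (1.21, adjusted p = 0.0309). Without both libraries that stood apart, an alternative chosen after seeing the data, 7, 84, 7, 1542, 1850 and 3529 genes were called in all but set A, with 1, 1 and 3 members in the comparisons of sets. Over all 7 comparisons the 10 members gave 1020 values under the alternatives, of which 75 changed sign, none of them past the threshold and none from a main value above 0.43 in size or a main p below 0.179. Among the genes whose fold changes are printed, leaving out 1 library at a time gave both signs for 8 values: HRK over both sets (-0.17 to 0.19), BOK (-0.33 to 0.29), BCL2L11 (-0.18 to 0.097), BBC3 (-0.42 to 0.10) and BAD (-0.63 to 0.21) after serotonin in set A, BBC3 between sets without ligand (-0.87 to 0.61), and BCL2L11 (-0.057 to 0.25) and BAD (-0.78 to 0.067) between sets with serotonin. Library size alone turned BBC3 between sets without ligand (-0.16) and BCL2L11 with serotonin (-0.18), and leaving out both libraries turned HRK over both sets (-0.039). The cause was not tested. Values of members with an unadjusted p of 0.05 or more, other than those of BOK, BCL2L11, BBC3 and BAD, are covered by the count of sign changes alone, a choice made after seeing them. Depth limits BOK most, at 2 to 53 counts a library.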
